A study of Macaca mulatta with 24 samples.

Results

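The fetal lung after maternal oral betamethasone was compared with the fetal lung after the intramuscular treatment used in the clinic, in 8 Rhesus macaque fetuses. The comparison was described across 15355 well measured transcripts, defined as those with at least 100 counts in each of the 8 lung libraries, of 45579 Ensembl transcripts listed for the series. These transcripts made up 56.6% of the 27108 lung transcripts that were tested, and they held 96.1% to 96.6% of the counts of each library. PolyA-selected RNA was sequenced from each fetus in 3 organs (lung, liver and hippocampus), 24 libraries in all, to ask how fetal organs respond to a maternal oral corticosteroid relative to the injected drug. In the clinical group the mothers were injected with betamethasone phosphate plus betamethasone acetate (Beta-P+Beta-Ac) at 0.25 mg/kg, for 2 doses separated by 24 hr. In the oral group they took Beta-P alone by mouth at 0.15 mg/kg, for 3 doses separated by 12 hr. Delivery was 5 days after the start of treatment in both groups. Gestational age was 132 to 133 days in the 4 clinical fetuses and 127 to 132 days in the 4 oral fetuses. All 8 fetuses were exposed to betamethasone and no untreated library was analysed here, so a difference below is one between 2 steroid treatments, and neither direction says whether the steroid raised or lowered a transcript. Route, salt, dose, number of doses and interval all changed together and cannot be told apart.

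Betamethasone is a synthetic glucocorticoid that crosses the placenta and binds the glucocorticoid receptor, a transcription factor present in most fetal tissues. In the fetal lung the receptor is known for its part in thinning of the mesenchyme, maturation of the alveolar epithelium and induction of surfactant proteins and lipids. The acetate ester dissolves slowly from the injection site and prolongs exposure, whereas the phosphate ester is soluble and is absorbed and cleared faster. The tables name transcripts only by Ensembl identifier, and the tables used here did not pair these with genes, so surfactant, cell type and glucocorticoid target lists could not be read and the tissue label could not be checked against lung markers. Every value is therefore given for a transcript. Levels are counts scaled to a common library total after normalization across libraries (normalized CPM), which are not per transcript length. Treatments were compared between libraries for the same transcript. Ranks and bands of level across transcripts follow normalized CPM, with no correction for length.

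The lung libraries held 22519902 to 28641485 counts in the clinical group and 21088272 to 22312791 in the oral group. Clinical 1 and clinical 2 carried the label of a different sequencing run from the other 6 libraries, which included all 4 of the oral group. The 10 well measured transcripts with the most counts took 5.89% of the counts of clinical 1 and 6.37% of oral 4, against 4.89% to 4.99% in the other 6 libraries. The oral fetuses were younger on average (129.75 against 132.75 days). Sequencing run and gestational age move in part with treatment, while the high shares were in clinical 1 and oral 4, which are of different groups. Lung fits were repeated with age or run as a term, and the counts and named fold changes that moved by over 1.5 times are given. Each library came from a different animal, so the p-values measure the spread between animals.

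Oral and clinical lungs differed little in most well measured transcripts. The median size of the log2 fold change, oral minus clinical, was 0.11 (1.08-fold), 75% of the transcripts were below 0.21 (1.16-fold) and 95% were below 0.45 (1.37-fold). The median signed change was 0.010, and the median standard error of a log2 fold change was 0.12. For 11494 transcripts (74.9%) the 95% confidence interval lay wholly inside 1.5-fold in both directions, so a larger difference lay outside the interval for them. With gestational age in the fit this held for 7346 (47.8%), and with sequencing run for 9295 (60.5%). The same held for 44.7% of all transcripts tested and for 615 of the 11753 that were not well measured (5.23%). A further 3843 intervals crossed a 1.5-fold bound, and for these a change of that size could not be judged at this number of animals. The spread between libraries was alike in both groups, with a median coefficient of variation of 11.2% in each. Run varied only in the clinical group and age varied more in the oral group, so these spreads are not of animals alone.

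A transcript was called different at a fold change of at least 1.5, an unadjusted p below 0.05 and a q below 0.1, where q is the p of edgeR's quasi-likelihood test after Benjamini-Hochberg adjustment over all 27108 transcripts. By this rule 0 well measured transcripts were higher with oral Beta-P (0% of all tested) and 1 was lower (0.00369% of all tested). An unadjusted p below 0.05 in the same test was found for 864 transcripts that were higher (5.63%) and 890 that were lower (5.80%), against 4.19% and 4.95% of all tested. Together these were 1754 transcripts, or 11.4% of those well measured and 6.18% of the rest. Most of these differences were small, since 1457 of the 1754 (83.1%) were below 1.5-fold and 737 had an interval wholly inside that bound. With DESeq2 and the same thresholds, 52 well measured transcripts were called higher and 115 lower, against 0.293% and 0.571% of the 39241 transcripts to which it gave a p. All 167 had an edgeR p below 0.05 in the same direction, and the groups did not overlap in 143 of them. Over all transcripts tested by edgeR the groups did not overlap in 3.08% (oral higher) and 3.12% (oral lower). The 167 were picked on the same counts, so neither value is separate support for them. The number called depended on the test, with median log2 fold changes of 0.75 and -0.81 for the DESeq2 calls in the 2 directions.

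Large differences were more often toward lower levels with oral Beta-P, as they were among all transcripts tested. At least 1.5-fold differences were seen in 125 transcripts that were higher and 241 that were lower, against 5.12% and 7.55% of all tested. These were 2.38% of the well measured transcripts, and 92 of the higher and 205 of the lower also had an unadjusted edgeR p below 0.05. Together they numbered 366, which became 735 with gestational age in the fit and 550 with sequencing run. At least 2-fold differences numbered 11 and 38. The 4 oral and 4 clinical libraries did not overlap in 595 transcripts that were higher (3.87%) and 513 that were lower (3.34%), against 3.08% and 3.12% of all tested. The plot of fold change against level shows transcripts past 1.5-fold at low, middle and high levels.

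**Figure D1:**
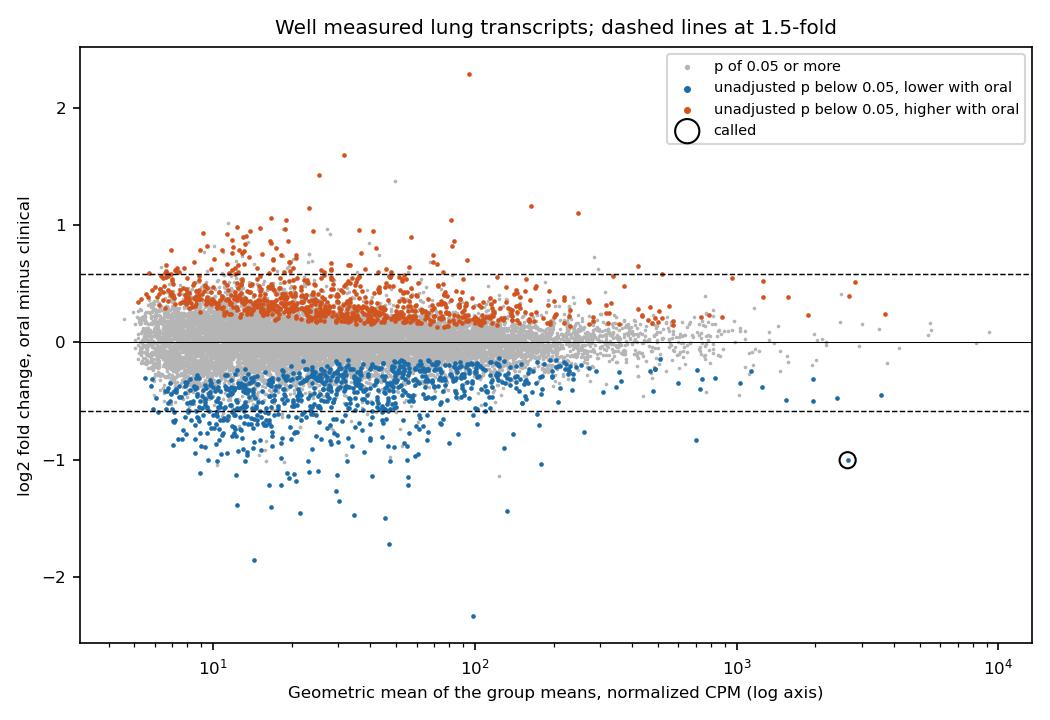
Log2 fold change (oral minus clinical) of the 15355 well measured lung transcripts against their normalized CPM on a log axis, where a point is a transcript, colours mark an unadjusted p below 0.05 and the circle marks the 1 called transcript. Most points lie between the dashed lines at 1.5-fold, with 125 above and 241 below.

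Precision was better at higher levels. When the transcripts were divided by mean level into 4 bands of like number, the median size of the log2 fold change was 0.15 in the lowest band and 58.5% of its intervals lay inside 1.5-fold. In the highest band these were 0.094 and 87.1%. The share with an unadjusted edgeR p below 0.05 was 10.03%, 11.4%, 12.2% and 12.1% from the lowest to the highest band. On either side of the 100-count threshold the sizes were alike. The 419 transcripts whose lowest library had 100 to 110 counts and the 445 whose lowest had 90 to 99 both had a median change of 0.19 in size. Because the threshold applied to every library, it also left out 2399 transcripts with a mean of at least 100 counts and a lower value in at least 1 library. Among these 209 were at least 1.5-fold higher and 312 lower, and 0 were called by edgeR, while 106 and 166 had an unadjusted p below 0.05.

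The 8 libraries separated by treatment on the first principal component of all well measured transcripts, while distances within and between treatments overlapped. On the first principal component, which held 23.1% of the variance, the 4 clinical libraries lay between -22.3 and -2.98 and the 4 oral libraries between 9.46 and 15.5. The second component held 18.1% and did not divide the treatments. The mean Euclidean distance (root of the summed squared differences in log2 CPM) between libraries of different treatments was 46.7. It was only slightly longer than that within the clinical group (43.8) or the oral group (43.1). Distances between treatments ran from 41.9 to 51.8, and those within a treatment from 39.0 to 46.3. Clinical 1 was about as far from the other clinical libraries (43.8 on average) as from the oral libraries (43.9). The split by treatment held 21.3% of the squared distance, which was the highest of the 35 possible splits into 4 and 4 (one-sided exact permutation test, p = 0.0286, the smallest this design can give). Gestational age and sequencing run move in part with treatment and were not terms in this test, so their parts in the share cannot be told apart. The share averages 14.3% over all 35 splits. Within the 6 libraries of the shared sequencing run the share was 26.0%, where the average over splits is higher with fewer libraries (20%), and it was again the highest of 15 splits (exact permutation p = 0.0667, the smallest possible with 2 against 4). Without oral 3, the youngest fetus, it was 23.2%, with an average of 16.7% over splits (exact permutation p = 0.0571).

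**Figure D2:**
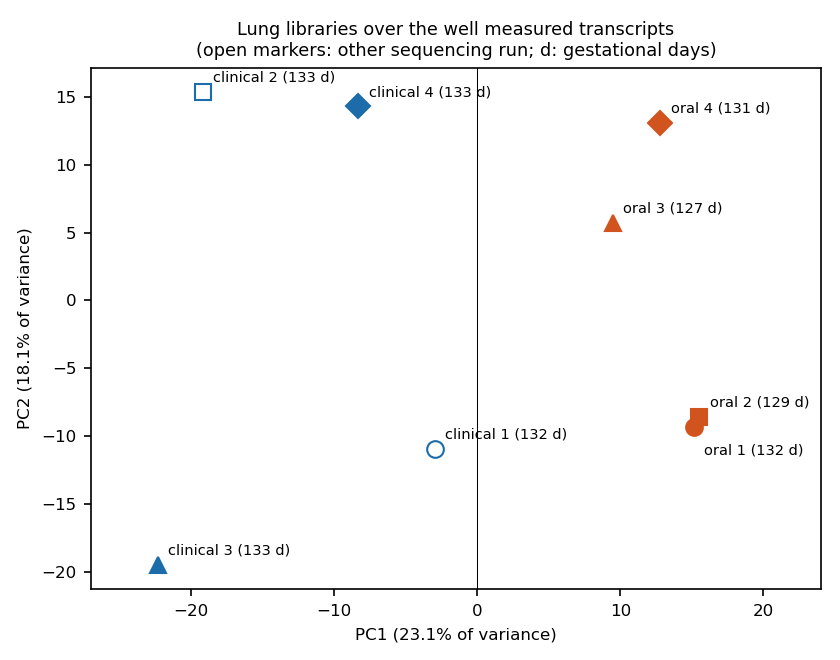
First and second principal components of the 8 lung libraries over the 15355 well measured transcripts on log2 normalized CPM, in component units, with gestational age in days beside each library and open markers for the 2 libraries of the other sequencing run. All 4 clinical libraries lie left of 0 on the first component and all 4 oral libraries lie right of it.

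The one transcript that passed every threshold was ENSMMUT00000054851.1. Its level was 3977, 3935, 3837 and 3299 normalized CPM in clinical 1 to 4, and 1974, 2091, 1653 and 1776 in oral 1 to 4. Every oral library was below every clinical library, and the groups lay well apart relative to the spread within them. The log2 fold change was -1.01 ± 0.096 (SE, n = 4 per group), with a q of 0.0977 in edgeR's quasi-likelihood test after Benjamini-Hochberg adjustment, close to the threshold of 0.1. Over the edgeR alternatives the log2 fold change lay between -1.06 and -0.92 and the q between 0.0561 and 0.931. The call held without clinical 1 or without oral 2 and was lost when any other single library was left out, and with a covariate for age or run. ENSMMUT00000069783.1 had the next smallest p and the same pattern, with 930, 1028, 938 and 851 normalized CPM in clinical 1 to 4 against 577, 567, 468 and 493 in oral 1 to 4. Its log2 fold change was -0.83 ± 0.092 with an edgeR q of 0.161, so it missed the threshold. All other well measured transcripts had an edgeR q of at least 0.282.

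Among the 8 transcripts with the smallest p that were lower with oral Beta-P, the other 6 ran from a log2 fold change of -0.58 to -0.95. ENSMMUT00000003594.3 had 28.2, 32.0, 26.5 and 29.1 normalized CPM in the clinical libraries and 19.7, 19.8, 18.7 and 19.1 in the oral libraries. The oral values were tightly grouped, and the difference was just under 1.5-fold (log2 fold change -0.58 ± 0.081). ENSMMUT00000018274.3, near the count threshold, had 12.1, 12.3, 13.0 and 10.3 in the clinical libraries and 5.19, 5.90, 6.56 and 7.08 in the oral libraries (log2 fold change -0.95 ± 0.14). The remaining 4 were ENSMMUT00000054799.1, ENSMMUT00000023131.3, ENSMMUT00000069136.1 and ENSMMUT00000014835.3, with log2 fold changes of -0.76, -0.73, -0.87 and -0.85. The groups did not overlap in any of the 8, against 3.12% of all tested with oral lower. The 8 were picked by p on the same libraries, so this is no separate support.

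The 8 transcripts with the smallest p that were higher with oral Beta-P mostly differed by less, from a log2 fold change of 0.36 to 1.04. The groups did not overlap in any of them either, against 3.08% of all tested with oral higher. They too were picked by p on the same libraries. ENSMMUT00000011262.3 had 43.5, 40.0, 40.7 and 41.4 normalized CPM in the clinical libraries and 54.6, 62.1, 54.2 and 60.7 in the oral libraries, a log2 fold change of 0.48 ± 0.071. ENSMMUT00000047788.2 had 233, 239, 232 and 247 in the clinical libraries and 302, 298, 329 and 295 in the oral libraries. Its difference was small but tight, 1.28-fold with a 95% interval of 0.23 to 0.50 on the log2 scale, which excludes 1.5-fold. ENSMMUT00000014241.3 was the largest of the 8, with 52.9, 57.6, 71.6 and 44.5 in the clinical libraries against 96.2, 106, 152 and 113 in the oral libraries (log2 fold change 1.04 ± 0.18). ENSMMUT00000006553.2, ENSMMUT00000013718.3, ENSMMUT00000011666.3, ENSMMUT00000057516.1 and ENSMMUT00000016236.3 had log2 fold changes of 0.68, 0.56, 0.49, 0.47 and 0.46. The edgeR q was 0.282 for each of the 8, so none was called, and the values are a description of the transcripts with the smallest p.

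**Figure D3:**
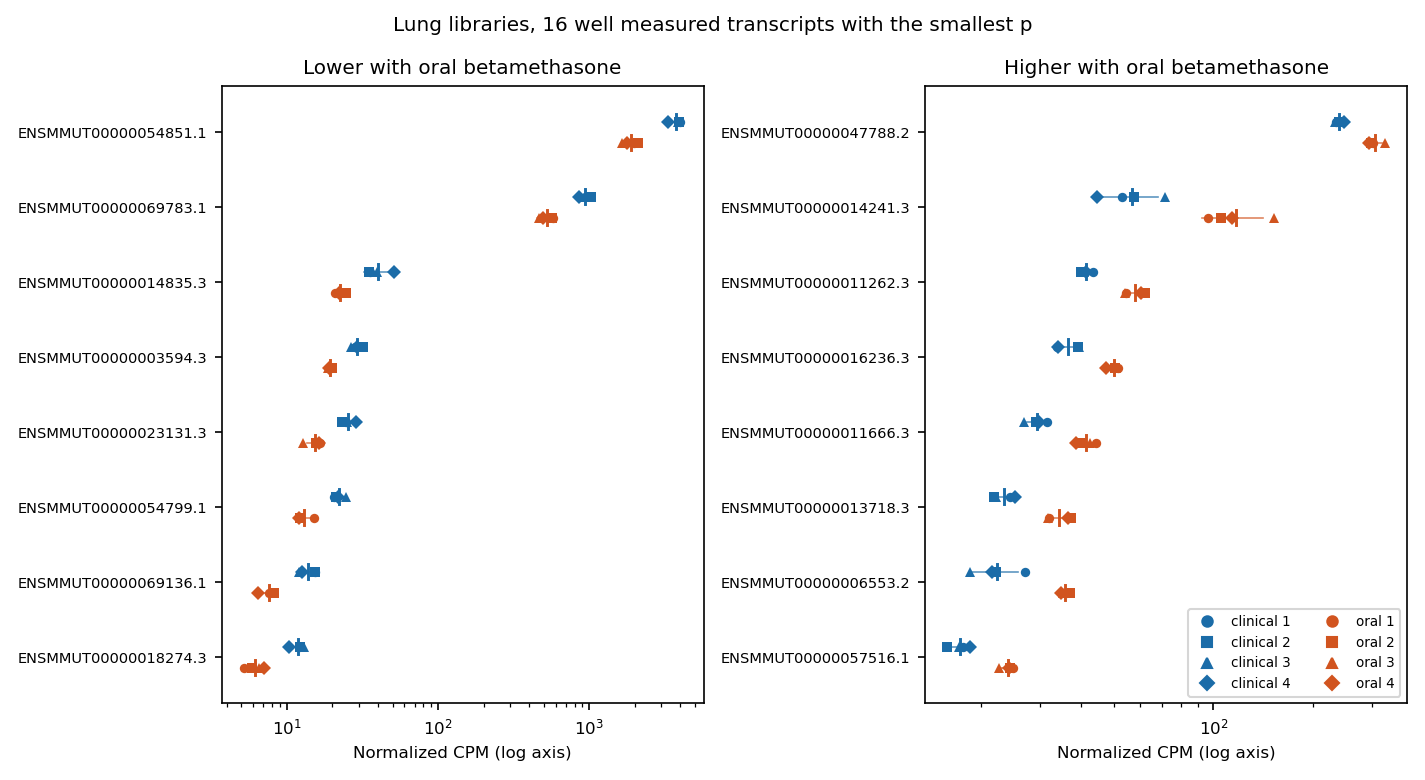
Normalized CPM on a log axis in each of the 4 clinical and 4 oral lung libraries for the 8 transcripts with the smallest p in each direction, with a bar at each group mean and marker shapes for the animal number within a group. In all 16 transcripts, which were picked by p on these same libraries, every oral library lies on the same side of every clinical library.

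The largest fold changes among transcripts with an unadjusted p below 0.05 were less even between animals. ENSMMUT00000002281.3 was lower with oral Beta-P, with 28.5, 40.1, 24.8 and 15.8 normalized CPM in the clinical libraries and 6.53, 10.3, 5.52 and 7.81 in the oral libraries (log2 fold change -1.86 ± 0.30). ENSMMUT00000010331.3 had 89.7, 147, 65.4 and 39.7 in the clinical libraries and 36.4, 27.6, 19.4 and 20.3 in the oral libraries (log2 fold change -1.72 ± 0.39). Clinical 2 was the highest of the 8 libraries in both, and the lowest clinical value of the second came close to the highest oral value. ENSMMUT00000001926.3 had 81.7, 106, 65.8 and 52.0 in the clinical libraries and 43.6, 41.3, 7.64 and 15.4 in the oral libraries (log2 fold change -1.50 ± 0.51). Oral 3, the youngest fetus, and oral 4 set its low group mean, and oral 1 and oral 2 lay closer to the clinical range. The log2 fold change was -0.77 with gestational age in the fit and -1.12 with sequencing run, with unadjusted edgeR p of 0.334 and 0.101, so it no longer passed 0.05.

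In the other direction, ENSMMUT00000046737.2 had 17.3, 27.1, 10.5 and 18.1 normalized CPM in the clinical libraries and 68.5, 51.2, 64.2 and 37.5 in the oral libraries (log2 fold change 1.60 ± 0.29). All 4 oral values were above the clinical range. ENSMMUT00000040480.2 had 9.59, 12.9, 17.0 and 22.4 in the clinical libraries and 24.6, 38.0, 50.3 and 53.7 in the oral libraries (log2 fold change 1.43 ± 0.31), with oral 1 just above clinical 4. ENSMMUT00000024164.3 had 99.03, 140, 107 and 90.03 in the clinical libraries and 356, 209, 156 and 259 in the oral libraries (log2 fold change 1.17 ± 0.25).

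In 2 transcripts a large fold change came from 1 or 2 animals. ENSMMUT00000053805.1 had 52.2, 41.2, 44.4 and 33.8 normalized CPM in the clinical libraries and 373, 31.9, 49.2 and 385 in the oral libraries. Only oral 1 and oral 4 were high, while oral 2 and oral 3 lay within or below the clinical range (log2 fold change 2.29 ± 0.77). With gestational age in the fit the estimate was 3.603 ± 0.63, and with sequencing run it was 2.43 ± 1.08. ENSMMUT00000055900.1 had 705, 27.0, 57.7 and 96.5 in the clinical libraries and 33.2, 24.5, 28.8 and 88.9 in the oral libraries. Its log2 fold change of -2.34 ± 0.999 was -0.45 without clinical 1, -0.81 ± 1.02 with sequencing run in the fit and -2.39 ± 1.396 with gestational age.

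These patterns followed the animals into other organs. For ENSMMUT00000053805.1 oral 1 and oral 4 had liver levels of 187 and 236 normalized CPM, against 20.5 to 25.8 in the other 6 animals. Their hippocampus levels were 156 and 202, against 19.8 to 35.7. For ENSMMUT00000055900.1 clinical 1 was again the highest of 8, with a liver level of 76.3, against 5.46 to 24.9 in the other animals. Its hippocampus level was 19.4, where the others were low, at 1.60 to 6.07. ENSMMUT00000024164.3 was highest in oral 1 and oral 4 in the hippocampus too, at 27.6 and 25.7, with 16.03 and 10.9 in oral 2 and oral 3 and 6.26 to 10.1 in the clinical animals. In the liver oral 4 had 16.7 and the other 7 animals 6.28 to 9.93.

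**Figure D4:**
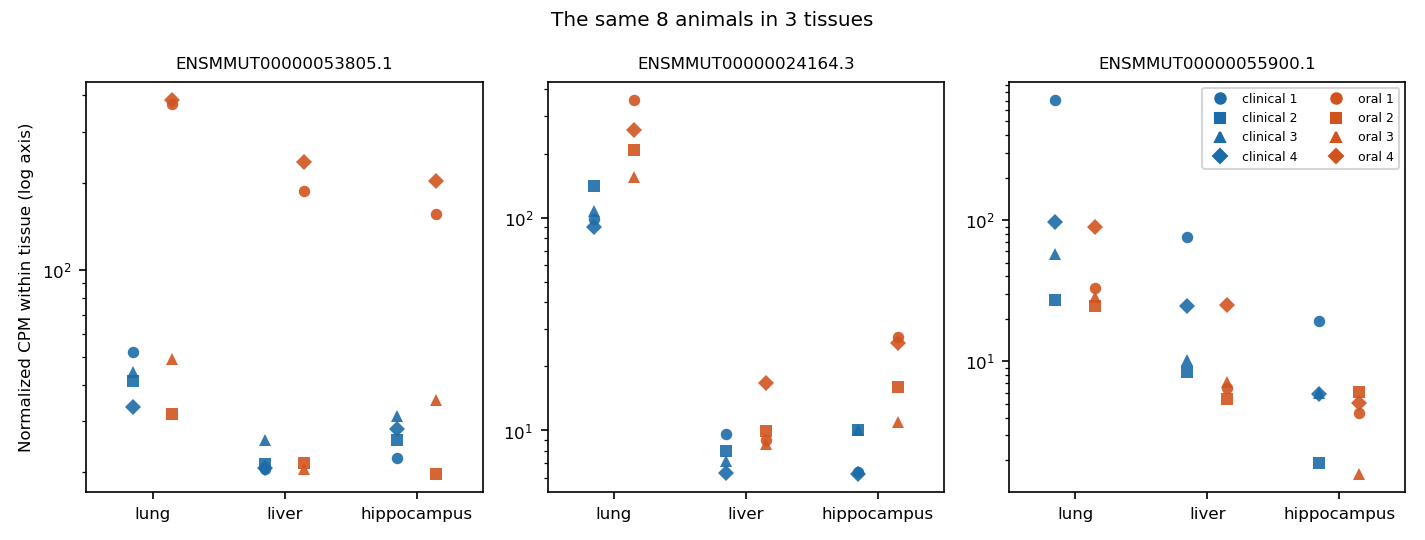
Normalized CPM within each tissue, on log axes, of 3 transcripts in each organ of the 8 animals (lung, liver, hippocampus), with colours for treatment and marker shapes for the animal. ENSMMUT00000053805.1 is high in oral 1 and oral 4 in all 3 tissues, and ENSMMUT00000055900.1 is highest in clinical 1 in all 3.

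The 6 transcripts with the most counts did not separate the treatments. ENSMMUT00000015401.3 had 9724, 9009, 8061 and 8852 normalized CPM in the clinical libraries and 9193, 9987, 9201 and 9442 in the oral libraries. Its log2 fold change was 0.085 with a 95% interval of -0.075 to 0.25. ENSMMUT00000038274.2, ENSMMUT00000038271.1, ENSMMUT00000038267.1, ENSMMUT00000038255.1 and ENSMMUT00000038262.1 were all highest in clinical 1 within the clinical group and in oral 4 within the oral group. For ENSMMUT00000038274.2 the values were 9935, 7044, 7754 and 8093 in the clinical libraries and 7198, 7044, 7378 and 11000 in the oral libraries. The log2 fold changes of the 5 ran from -0.045 to 0.17, and their 95% intervals reached from -0.57 to 0.52. For 4 of the 5 the sign changed when 1 library was left out.

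For 18 transcripts the 95% interval lay wholly beyond 1.5-fold, 13 lower and 5 higher with oral Beta-P, and the groups did not overlap in any of them. Their log2 fold changes were 0.83 to 1.86 in size. Clinical 2 was the highest of the 8 libraries in 10 of the 13 lower transcripts, and oral 3 was the lowest in 9. ENSMMUT00000071552.1 is an example of both, with 191, 388, 153 and 142 normalized CPM in the clinical libraries and 120, 80.5, 57.9 and 63.6 in the oral libraries. Its 95% interval on the log2 scale ended at -0.60, close to the 1.5-fold bound. ENSMMUT00000012156.3 had 59.3, 75.8, 60.4 and 34.9 in the clinical libraries and 28.7, 21.5, 17.2 and 15.7 in the oral libraries. ENSMMUT00000004742.3 was among the 5 higher, with 190, 175, 167 and 143 in the clinical libraries and 528, 301, 336 and 282 in the oral libraries. All 18 were among the DESeq2 calls, and only ENSMMUT00000054851.1 was called by edgeR. They were picked by their own intervals, so the list is a description.

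Fewer transcripts had an unadjusted p below 0.05 once gestational age or sequencing run entered the fit, while more were past 1.5-fold. With age as a covariate, 466 transcripts that were higher and 449 that were lower had an unadjusted edgeR p below 0.05, and 575 of the 1754 (32.8%) were among them in the same direction. With sequencing run as a covariate the numbers were 749 and 637, with 944 (53.8%) kept. The estimates kept their sign in 1753 of the 1754 with age and in all 1754 with run, while the median standard error rose from 0.12 to 0.19 and 0.15. The 1754 were picked on the same libraries, so the kept signs are no separate support. The covariates themselves had an unadjusted edgeR p below 0.05 in 406 transcripts for age and 497 for run, and in 0 at a q below 0.1. Using only the 6 libraries of the shared run, 2 clinical and 4 oral, 773 transcripts that were higher and 587 that were lower had an unadjusted edgeR p below 0.05, 0 were called, and the smallest q was 0.212.

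The 18 transcripts with intervals beyond 1.5-fold stayed past 1.5-fold in the same direction with either covariate. They were picked on the same 8 libraries, so this is a description and not a separate test. An unadjusted edgeR p below 0.05 was found in 17 with age and in all 18 with run. The exception was ENSMMUT00000071552.1, with an unadjusted edgeR p of 0.0997 with age. Its log2 fold change moved from -1.44 to -0.98 with age and to -0.87 with run. For ENSMMUT00000010331.3 the log2 fold change moved from -1.72 to -1.40 with age and to -1.02 with run. For ENSMMUT00000054851.1 it moved only to -0.94 and -0.93. For ENSMMUT00000024164.3 it moved up, from 1.17 to 1.77 with age and 1.31 with run.

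**Figure D5:**
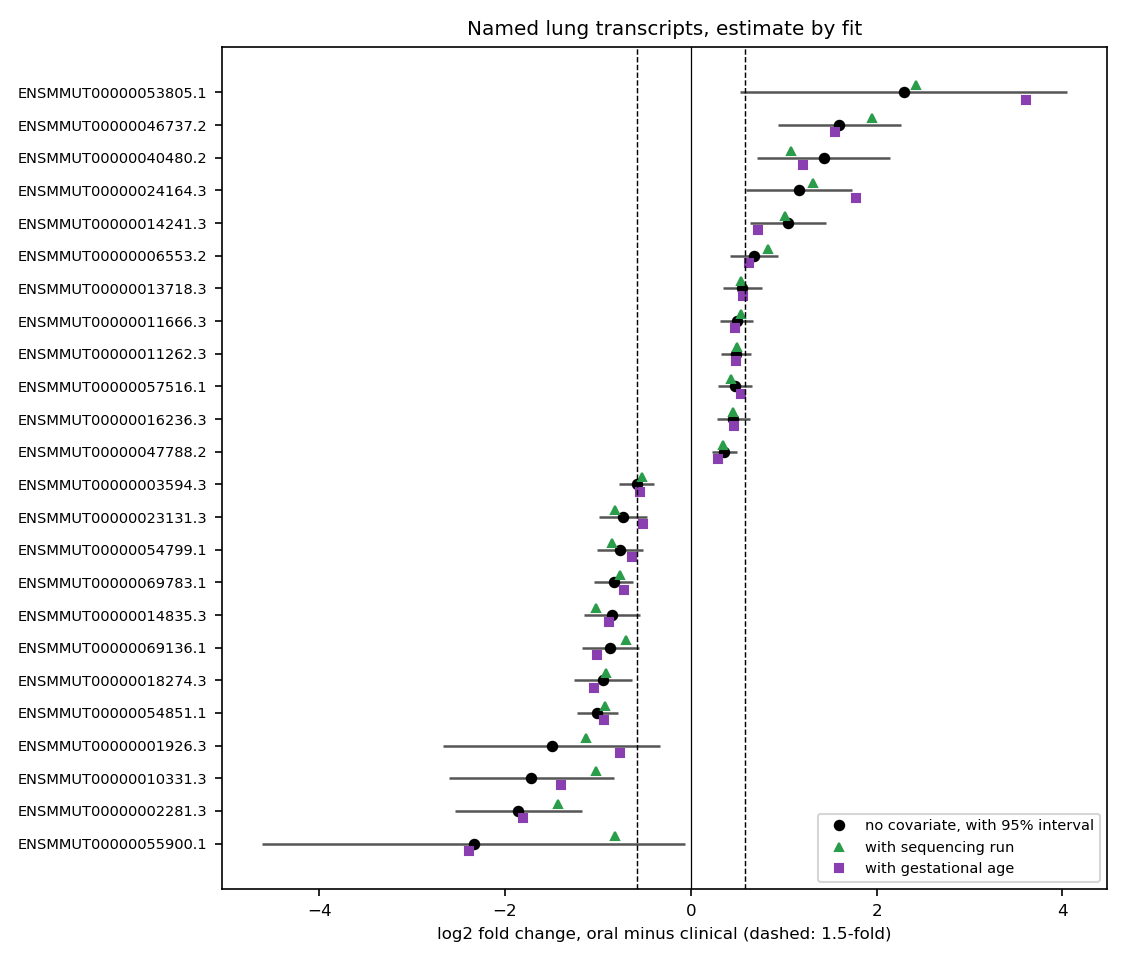
Log2 fold change (oral minus clinical) of the 24 named lung transcripts chosen by p or fold change, with the 95% confidence interval of the fit without covariates (circles and lines) and the estimates with sequencing run (triangles) or gestational age (squares) as a covariate. Estimates of all 24 stay on the same side of 0 in the 3 fits.

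The lung was then set beside the other organs of the same fetuses, on the transcripts that were well measured in both. Over 11254 such transcripts an unadjusted edgeR p below 0.05 was found in 7.58% in the liver and 10.9% in the lung, and the 95% interval lay inside 1.5-fold for 65.5% in the liver and 83.3% in the lung. Over 13047 transcripts shared with the hippocampus the p was below 0.05 in 3.27% in the hippocampus and 11.3% in the lung, and the interval lay inside 1.5-fold for 89.2% and 79.9%. No transcript among them was called in the liver or hippocampus by edgeR (0 in each). Precision differed between organs. The median standard error over the first set was 0.16 (liver) and 0.11 (lung), and over the second it was 0.11 (hippocampus) and 0.12 (lung), so these shares are not a test of a difference between organs. Sequencing run also divided the organs differently. In the hippocampus clinical 1 to 3 were of the run of most lung libraries, and clinical 4 and all 4 oral libraries were of a run with no lung library, so that run and treatment nearly coincide. In the liver 7 libraries shared a run and oral 3 was of another.

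A treatment effect that differed between organs was tested as an interaction of tissue and treatment in edgeR. At a q below 0.1 it was found for 6 well measured lung transcripts against the liver and 3 against the hippocampus (0.0391% and 0.0195%, against 0.0369% and 0.0417% of all tested). These shares are near or below those of all transcripts. With the animal as a replicate block, which pairs the organs of each fetus, the numbers were 0 and 0 (0% of all tested), with 1251 and 1132 at an unadjusted edgeR p below 0.05 (smallest edgeR q 0.341 and 0.103 among them), so the calls were lost when the organs were paired. DESeq2's interaction term without the block gave 182 and 125 (1.19% and 0.814%, against 0.825% and 0.738% of all tested). With sequencing run as a term in edgeR they were 2 and 11 (against 0.0201% and 0.103% of all tested). The 2 were ENSMMUT00000014654.3 and ENSMMUT00000066499.1, and the 11 held none of the 3 found without it. ENSMMUT00000011262.3, described above, was 280.9, 274.7, 295.0 and 284.3 normalized CPM in the clinical hippocampus and 275.2, 276.2, 298.7 and 297.1 in the oral hippocampus. The groups overlapped there, and the difference of log2 fold changes, lung minus hippocampus, was 0.47 (edgeR q 0.0968, and 0.452 with the block). For ENSMMUT00000017720.3 the lung values were 41.8, 38.0, 33.6 and 37.4 in the clinical libraries and 26.2, 18.5, 23.5 and 20.4 in the oral libraries. In the hippocampus they were 145, 129, 136 and 137 against 136, 138, 136 and 154. ENSMMUT00000076741.1 was 24.4, 34.2, 17.1 and 35.3 against 13.0, 12.2, 10.9 and 11.9 in the lung and 13.3, 10.8, 13.2 and 13.3 against 16.6, 16.5, 13.4 and 17.1 in the hippocampus. Both had clinical values above all oral values in the lung and overlapping or inverse values in the hippocampus, with differences of -0.82 and -1.54 (edgeR q 0.0968 each).

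Of the 6 that differed from the liver, the lung values of ENSMMUT00000014654.3 overlapped between treatments, at 31.6 to 40.8 normalized CPM in the clinical libraries and 35.7 to 42.1 in the oral libraries. In the liver the clinical libraries had 6.72, 6.45, 8.59 and 6.80 and the oral libraries 2.75, 2.39, 3.52 and 2.87, so the difference lay in the liver. The same held for ENSMMUT00000047176.2 and ENSMMUT00000056195.1, whose lung groups also overlapped. Their liver levels were low, at 0.79 to 3.72 and 1.71 to 5.12 normalized CPM. The liver levels of the other 3, ENSMMUT00000010032.3, ENSMMUT00000021600.3 and ENSMMUT00000066499.1, were at most 2.37 normalized CPM in every animal and 0 in several.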

How the data were processed

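The authors deposited 1 table per tissue with unnormalized values for each Ensembl transcript and library. The deposited lung and hippocampus values are whole counts. The deposited liver values are estimated counts, many not whole, and were rounded before testing. Per the study's methods, STAR was the aligner, with build MMUL1.0 of the macaque genome. The submitters' processing notes also list featureCounts and DESeq2. The counting tool's role, annotation release, strand setting and treatment of reads shared by transcripts are not given in the sources used here, and transcripts of 1 gene can share reads. In the lung, 55 well measured transcripts had the same counts in all 8 libraries as another one, leaving 15312 distinct rows.

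The lung counts were fitted with edgeR 4.0.16 (limma 3.58.1, R 4.3.3): filterByExpr, TMM normalization, quasi-likelihood test and Benjamini-Hochberg adjustment over all 27108 transcripts tested. Standard errors came from the F statistic. DESeq2 1.42.0, at its defaults, served as the first alternative, and 3 well measured transcripts had no adjusted p there. Distances and principal components used log2 CPM with a prior count of 2. The scripts were tested on simulated data. The transcripts and lists were chosen with earlier results of these data known. Transcripts named were those called, the 8 with the smallest p and the 4 with the largest fold change at an unadjusted p below 0.05 in each direction, and the 6 with the highest mean normalized CPM. The others named, picked after their values were seen, were ENSMMUT00000071552.1, ENSMMUT00000012156.3 and ENSMMUT00000004742.3, the transcripts of the interaction tests and those called under an alternative.

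Interactions with the liver or hippocampus were fitted over 16 libraries. Libraries of 1 animal come from the same fetus by their labels. Deviations from the group means, correlated over all well measured transcripts, gave an r of 0.123 on average for the same animal in lung and liver (0.050 to 0.22) and 0.106 in lung and hippocampus (-0.00076 to 0.23), against -0.0176 and -0.0151 for different animals, so the animal served as a replicate block in an alternative fit. The other alternatives were robust dispersions, RLE factors, library totals only, other filters and thresholds, other definitions of well measured, a covariate for sequencing run or gestational age, the 6 libraries of 1 run, each library left out in turn, and, chosen after seeing the data, clinical 1 and oral 4 left out together and sequencing run in the interaction fits. The median standard error was 0.16 in the lowest band of level and 0.093 in the highest. How far counting and the spread between animals each limit precision was not tested. Gene lists and cell type markers had been written down and were not used, because no identifier could be paired with a gene.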

Additional observations from a re-analysis of the deposited data

Results flagged for a closer look

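Of 74 groups of 4 libraries examined for 1 value far from the others, 8 stood out, where chance at 1 in 20 gives 3.7, and neighbouring values are not independent. The total of oral 2 was 21088272 counts, against 22106541 to 22312791 in the other oral libraries. The share of counts in the 10 most abundant well measured transcripts was 5.89% in clinical 1 and 6.37% in oral 4. ENSMMUT00000038255.1 was 6762 normalized CPM in clinical 1, against 4689 to 4881 in the other clinical libraries, and ENSMMUT00000038274.2 was 11000 in oral 4, against 7044 to 7378. Both belong to those 10, so these values and the shares are 1 pattern. ENSMMUT00000055900.1 was 705 in clinical 1 and 88.9 in oral 4, the highest of each group. ENSMMUT00000054799.1 was 15.1 in oral 1, against 12.0 to 12.5 in the other oral libraries.

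The effect of treatment differed between the lung and another organ in edgeR's interaction test at a q below 0.1 for 6 transcripts with the liver and 3 with the hippocampus, none of which passed with the animal as a replicate block. With sequencing run as a term, ENSMMUT00000014654.3 and ENSMMUT00000066499.1 passed and the other 7 did not. The difference of log2 fold changes, lung minus liver, was 1.41 for ENSMMUT00000014654.3, 1.57 for ENSMMUT00000047176.2 and -1.56 for ENSMMUT00000056195.1. It was -5.59 for ENSMMUT00000010032.3, 7.10 for ENSMMUT00000021600.3 and 8.36 for ENSMMUT00000066499.1, where most or all liver libraries of 1 treatment were at 0, so that these fitted values depend on the prior count and are no bound. Lung minus hippocampus it was 0.47 for ENSMMUT00000011262.3, -0.82 for ENSMMUT00000017720.3 and -1.54 for ENSMMUT00000076741.1. All 3 were nearly flat or of opposite direction in the hippocampus.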

How the results depend on the processing

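The direction of all 24 transcripts named by p or fold change, the count called higher by every edgeR setting (0), and the median size of change held under all alternatives. The count called lower was 1 and was 0 with robust dispersions, library totals only, no filter on low counts, age or run as a covariate, the 6 libraries of 1 run, a q below 0.05, or clinical 1 and oral 4 left out together, and 2 with at least 10 counts in every library, which tests fewer transcripts and adds ENSMMUT00000069783.1. DESeq2 called 52 higher and 115 lower. Leaving out each library in turn gave 0 to 3 lower: 1 without clinical 1, 3 without oral 2 (adding ENSMMUT00000028999.3 and ENSMMUT00000059945.1), and 0 without any of the other 6. An unadjusted p below 0.05 was found for 466 higher and 449 lower with age, and 587 lower in the 6 libraries. The number past 1.5-fold, 366, was 633 with a minimum of 50 counts, 196 with 200, 887 with a mean of 100, 735 with age, 550 with run and 562 without clinical 1 and oral 4. Intervals inside 1.5-fold fell to 7346 with age. Transcripts without overlap of the groups, 1108, were 3032 in the 6 libraries, 2831 without clinical 1 and oral 4, and 1504 to 2028 with each library left out, where fewer samples make separation easier (2028, 1748, 1835, 1825 and 1731 without clinical 1, clinical 4, oral 2, oral 3 and oral 4). Interactions fell from 6 (liver) and 3 (hippocampus) to 0 and 0 with the animal as a replicate block, were 182 and 125 with DESeq2, and were 2 and 11 with sequencing run as a term, which was added after seeing the data. The share of squared distance between treatments was 22.03% to 25.4% with each library left out, where fewer libraries raise the average over splits from 14.3% to 16.7%. It missed an exact permutation p of 0.05 at 23.2% (p = 0.0571) without oral 3, and at 26.0% in the 6 libraries, where p cannot go below 0.0667. Log2 fold changes of abundant transcripts near 0 changed sign: ENSMMUT00000038274.2 and ENSMMUT00000038262.1 were 0.081 and 0.012 with age, 0.042 and 0.16 with run, 0.049 and 0.17 in the 6 libraries, and -0.18 to 0.10 and -0.29 to 0.13 with each library left out. For ENSMMUT00000038271.1 and ENSMMUT00000038255.1 the last ranges were -0.026 to 0.24 and -0.12 to 0.21, below 0 only without oral 4. Where no cause is named, it was not tested.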

Other observations

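A comparison of the 3 organs of each animal, added after ENSMMUT00000053805.1 had been seen, looked for others that stood apart in the same animal in every organ. ENSMMUT00000055900.1 was not well measured in all 3 tissues and so was not in it. The highest lung library was at least 4 times the lowest for 60 of the 10368 transcripts that were well measured in all 3 tissues. In 3 of these 60 the same animal was highest in all 3 tissues. Over all 10368 this held for 444 (4.28%), so the 3 are near that share. In 8 transcripts the spread was at least 4-fold in every tissue, and in 2 of these 1 animal was highest throughout. The first was ENSMMUT00000053805.1. The second was ENSMMUT00000023180.3, where clinical 4 and oral 1 stood apart. In the lung clinical 4 had 49.0 normalized CPM and oral 1 had 31.0, against 9.70 to 13.7 in the other 6 animals. In the liver they had 22.2 and 11.6, against 4.41 to 6.11, and in the hippocampus 55.2 and 30.0, against 11.4 to 15.2. The high animals belonged to 1 treatment in the first transcript and to both treatments in the second.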
